A study of Mus musculus with 6 samples.

Results

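The genes that carry a cell from G1 into S phase were followed here as 10 genes: the D cyclins Ccnd1, Ccnd2 and Ccnd3, their kinases Cdk4 and Cdk6, the E cyclins Ccne1 and Ccne2, the transcription factor E2f1, its partner Rb1, and Myc. They were chosen by symbol for their known roles, with earlier results of these data known, and all 10 were found among the 17469 genes of the deposited table. RNA-seq had been done on tdTomato+ cells sorted from cultures of bone marrow stromal cells (BMSCs, the marrow cells that attach to a dish and grow) of 6-month-old mice, with 3 libraries for each of 2 genotypes. Control mice carried Ocn-Cre and Ai9. TgAPPsweOCN mice carried Ocn-Cre, Ai9 and TgAPPswe, the human amyloid precursor protein with the Swedish mutation behind a stop cassette that Cre removes. The comparison asks how the machinery of G1 differs in these cells once the transgene is switched on.

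Ocn-Cre is driven by the promoter of osteocalcin, a gene of the osteoblast lineage, and Ai9 marks a cell with tdTomato once Cre has acted in it or in a cell it descends from, so the sort selects a history of Cre activity and not osteocalcin expression at the time of the sort. The transgene itself is driven by the ubiquitous CAG promoter. Both genotypes share the Cre and the reporter. Culture, sort and library batches are not given in the labels, so a difference in these and the genotype cannot be told apart. The labels do not say how many mice stand behind each library, and the p-values below measure the spread between these libraries, which may be technical in part.

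Estimated counts summed to 19340810 to 19801060 in the Control libraries and to 21677461 to 22037840 in the TgAPPsweOCN libraries, and 3 counts, the level taken as the floor of detection, corresponded to 0.136 to 0.155 CPM (counts scaled to the library total). Levels are given as FPKM, the fragments counted for a gene divided by its length and by the size of the library. The gene App, whose single entry cannot separate mouse from human transcripts, averaged 279 ± 3.50 FPKM in Control and 330 ± 4.18 FPKM in TgAPPsweOCN libraries (mean ± SD, n = 3), a log2 fold change of 0.45. The study takes the sorted cells as osteoblast progenitors. Osteocalcin (Bglap), a marker of mature osteoblasts, had an FPKM of 0.35 to 1.25 in Control and 0 to 0.49 in TgAPPsweOCN libraries and was too low to be tested. The 3 highest of the 12 stromal and osteoblast-lineage markers listed had an FPKM of 45.3 to 45.7 and 26.9 to 41.5 for the bone collagen Col1a1, 49.4 to 56.5 and 34.0 to 48.9 for Col1a2, and 22.7 to 40.8 and 27.0 to 63.4 for the chemokine Cxcl12. Most of the rest were low: over all 6 libraries the receptor gene Lepr had an FPKM of 0.05 to 0.15, Pdgfra of 0.87 to 1.9, Ibsp of 0.24 to 1.43, and the osteoblast transcription factors Runx2 of 1.3 to 2.13 and Sp7 of 0.58 to 1.52. Alpl (3.04 to 4.24), Pdgfrb (3.44 to 7.32) and Col3a1 (10.2 to 20.7) lay between. Myeloid genes were high. Ptprc, which encodes the leukocyte antigen CD45, had an FPKM of 91.8 to 97.6 and 120 to 126, and Lyz2, the lysozyme of myeloid cells, one of 8888 to 9263 and 5379 to 8724. With high myeloid markers and only some of the stromal markers above a few FPKM, the cells are called tdTomato+ cells below. The T cell marker Cd3e had an FPKM of at most 0.07 and the endothelial marker Cdh5 of at most 1.5.

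In the textbook account of G1, growth signals raise the D cyclins, which bind CDK4 or CDK6 and start the phosphorylation of the retinoblastoma protein RB. RB holds E2F factors inactive until it is phosphorylated. Freed E2F factors then switch on the E cyclins and the genes of DNA replication, and cyclin E with CDK2 carries the process past the point of no return. MYC, paired with MAX at E-box sequences, is a growth factor response gene that drives ribosome production and metabolism and promotes entry into the cycle. CDK inhibitors of the CIP/KIP and INK4 families hold the kinases back.

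Counts were compared with edgeR's quasi-likelihood test after TMM scaling, in which most genes are taken as unchanged, and p-values were adjusted by the Benjamini-Hochberg method over the 12701 genes tested. All 10 genes had enough counts to be tested. At an adjusted p of 0.05 or less, 3 of the 10 were higher in TgAPPsweOCN libraries (Ccnd3, Ccne1 and Rb1), against 32.5% of all tested genes, and 5 were lower (Ccnd1, Ccnd2, Cdk4, Ccne2 and E2f1), against 31.5%. Cdk6 and Myc did not pass. With a log2 fold change of at least 1 asked for as well, 0 were higher, against 8.90% of all tested genes, and Ccnd1 alone was lower, against 9.20%. The share called higher was close to that of all tested genes, and with so many genes called in both directions the number of calls is not read as a result. How many of all tested genes had groups without overlap was not counted, so such gaps only describe the genes named. What follows turns on which genes moved and by how much. Their median log2 fold change was -0.24, beside -0.02 for all tested genes. When libraries were scaled by their totals only, the median of all tested genes was -0.23, and the deposited FPKM values lie on nearly that scale. Log2 fold changes from the TMM-scaled fit therefore lie higher than those of FPKM, and this bears on the calls of Rb1 and Cdk6 and on the sign of Myc below.

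**Figure D1:**
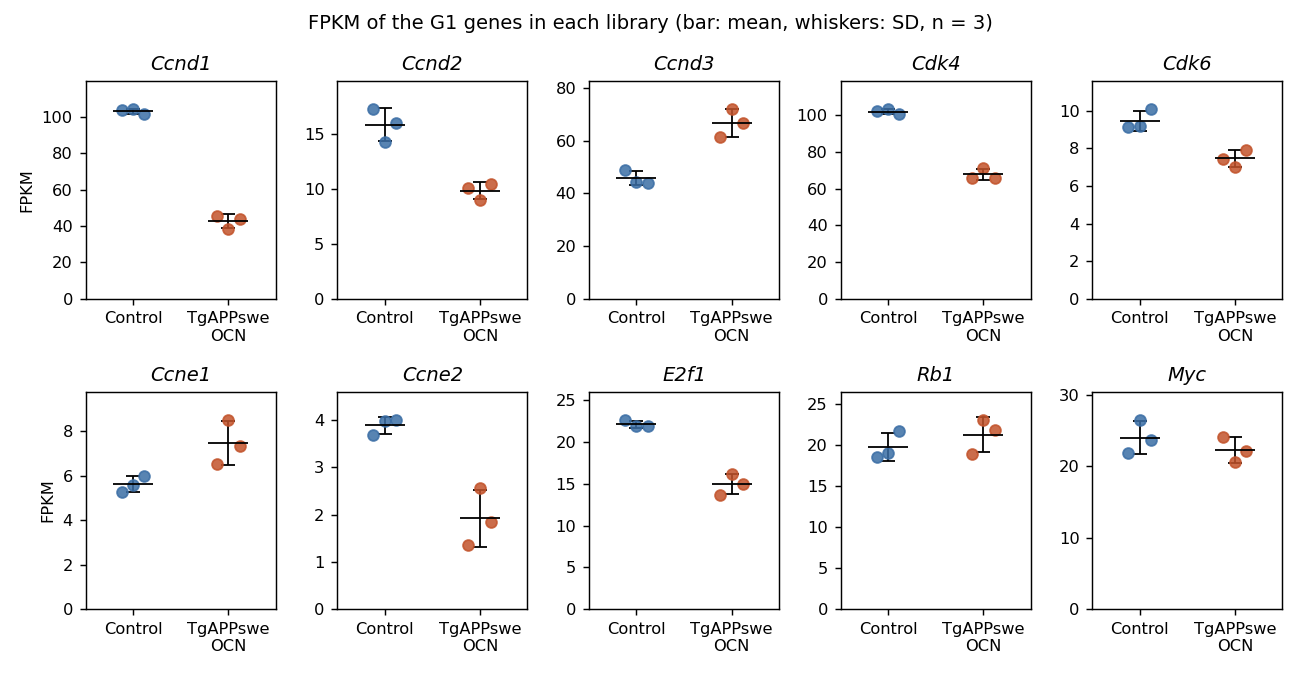
FPKM of each of the 10 G1 genes (vertical axis, starting at 0, scaled separately for each gene) in the 3 Control and 3 TgAPPsweOCN libraries; points are libraries, the horizontal bar is the mean and the whiskers are the SD. Ccnd3 and Ccne1 lie higher in every TgAPPsweOCN library than in any Control library, Ccnd1, Ccnd2, Cdk4, Cdk6, Ccne2 and E2f1 lie lower, and Rb1 and Myc overlap.

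Ccnd1 fell and Ccnd3 rose. Ccnd1 (Entrez 12443, chr7:144929931-144939925, minus strand), which encodes cyclin D1, had an FPKM of 103.9, 104.16 and 101.62 across the Control libraries, against 45.72, 38.52 and 43.81 with the transgene. The Control values lie close together, and each is more than 2-fold above any TgAPPsweOCN value. Its log2 fold change was -1.06 (standard error, SE, 0.0785, 95% confidence interval -1.24 to -0.88, adjusted p = 7.24e-06 from edgeR), the largest change in size among the 10 genes. Without TgAPPsweOCN replicate 2, the library with the lowest value, it was -0.97, just short of the fold change threshold. In bulk RNA, fewer cells that express a gene and less of its RNA per cell cannot be told apart, for Ccnd1 as for the genes below. Ccnd3 (Entrez 12445, chr17:47505051-47599691, plus strand), which encodes cyclin D3, the D cyclin best known from blood cells, moved the other way. Its FPKM was 48.86, 44.26 and 44.03 in Control and 61.34, 71.79 and 66.5 in TgAPPsweOCN libraries, without overlap. It rose by a log2 fold change of 0.76 (SE 0.0710, 95% confidence interval 0.60 to 0.92, adjusted p = 2.63e-05 from edgeR). TgAPPsweOCN replicate 2 held both the lowest Ccnd1 and the highest Ccnd3 level.

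Ccnd2 (Entrez 12444, chr6:127125162-127152193, minus strand), which encodes cyclin D2, fell as Ccnd1 did, though by less. Its FPKM was 17.24, 14.24 and 16.02 in Control libraries, and 10.06, 8.95 and 10.48 in TgAPPsweOCN libraries, so that the groups did not overlap. In edgeR it fell by 0.48 on the log2 scale (SE 0.0933, 95% confidence interval -0.69 to -0.26, adjusted p = 0.00202). Ccnd1 and Ccnd3 had fractional estimated counts in all 6 libraries, as arises when reads are divided between entries that resemble each other, and the annotation lists a processed pseudogene of Ccnd3. Ccnd2 had whole counts throughout.

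Summed over the 3 D cyclins, the FPKM was 165 ± 4.55 (mean ± SD, n = 3) in Control and 119 ± 1.84 in TgAPPsweOCN libraries, without overlap. Ccnd1 made up 62.7% ± 1.47 of that sum in Control and 35.9% ± 3.39 in TgAPPsweOCN libraries. Ccnd3 made up 27.7% ± 0.877 and 55.9% ± 3.98, so that on the FPKM scale the leading D cyclin mRNA was Ccnd1 in each Control library and Ccnd3 in each TgAPPsweOCN library. This order rests on the correction for gene length: in TMM-scaled CPM, Ccnd1 (188, 153 and 176) stayed above Ccnd3 (125, 142 and 133) in each TgAPPsweOCN library. Ccnd2 made up 9.60% ± 0.743 and 8.26% ± 0.653, a difference of -1.34 percentage points that turned to 0.360 when TMM-scaled CPM, with no correction for gene length, replaced FPKM. A factor that scales a whole library cancels in such shares and ratios, but the correction for length does not cancel in shares. The log2 ratio of the Ccnd1 to the Ccnd3 FPKM was 1.09, 1.23 and 1.21 across the Control libraries, against -0.42, -0.90 and -0.60 across the TgAPPsweOCN libraries. That is a difference of -1.82, with no overlap between the groups (exact permutation test, two-sided p = 0.1, and 0.12 after Benjamini-Hochberg adjustment over the 12 sums, shares and ratios compared). With 3 libraries against 3, 0.1 is the smallest p this test can give. The ratio of Ccnd1 to Ccnd2 differed by -0.59 and that of Ccnd2 to Ccnd3 by -1.23 on the log2 scale, each without overlap and with the same p.

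**Figure D2:**
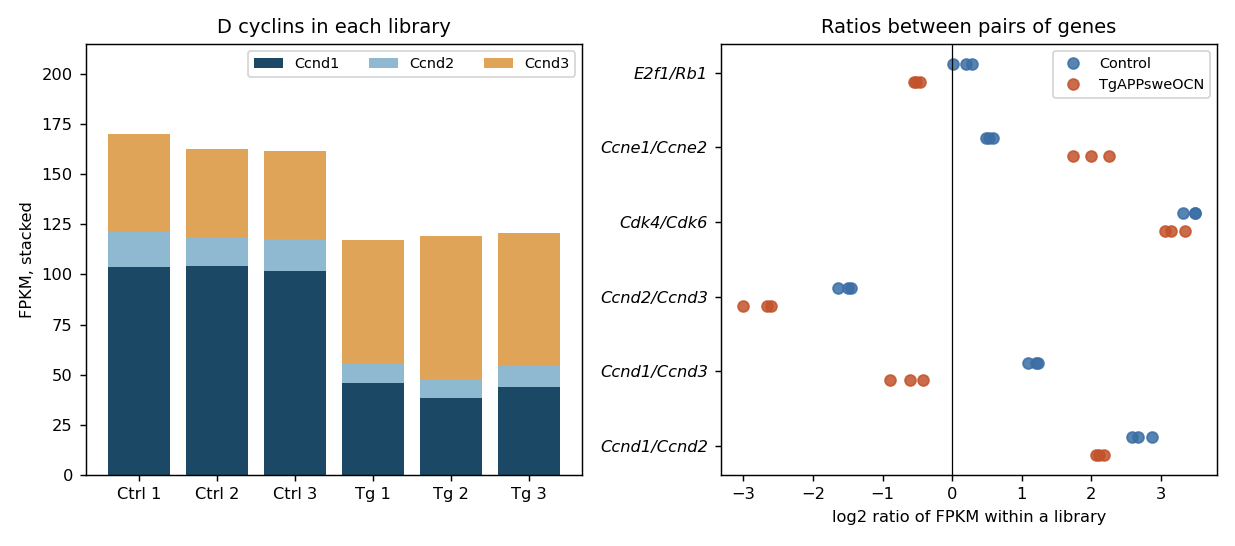
Left, FPKM of the D cyclins stacked for each library (Ctrl, Control; Tg, TgAPPsweOCN; axis from 0); right, log2 ratios of FPKM between pairs of genes, each point 1 library. The stacks fall from 161.67 to 170 down to 117.12 to 120.79 FPKM while the Ccnd3 part widens, and the groups are apart in every ratio except Cdk4/Cdk6.

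Cdk4 (Entrez 12567, chr10:127063534-127067920, plus strand), the D cyclin kinase with the higher mRNA level, fell too. Its FPKM was 102.12, 103.24 and 100.82 in Control and 66.09, 71.51 and 65.93 in TgAPPsweOCN libraries. Both groups were tight and lay well apart. The fall was -0.38 on the log2 scale (SE 0.0531, 95% confidence interval -0.50 to -0.25, adjusted p = 0.000308 from edgeR). With library size only, Cdk4 fell by more (-0.59, adjusted p = 3.23e-05 from edgeR). Cdk6 (Entrez 12571, chr5:3341485-3531008, plus strand), its close relative, is prominent in blood cells. It had an FPKM of 9.12, 9.2 and 10.07 in Control and 7.45, 7.02 and 7.91 in TgAPPsweOCN libraries, again without overlap. After TMM scaling its CPM was 97.6, 98.0 and 107 against 94.1, 85.4 and 97.6, which overlap. The log2 fold change of Cdk6 was -0.13 (95% confidence interval -0.29 to 0.03, adjusted p = 0.141 from edgeR). Scaled by library size only it was -0.34 with an adjusted p of 0.00214, and over all alternatives the adjusted p ran from 0.00214 to 0.419, so whether Cdk6 counts as lower depends on the scaling. The log2 ratio of Cdk4 to Cdk6 was 3.43 ± 0.0941 (n = 3) in Control and 3.19 ± 0.148 in TgAPPsweOCN libraries, which overlap (exact permutation test, two-sided p = 0.2). Together both kinases had a summed FPKM of 111.5 ± 0.813 and 75.3 ± 2.80, without overlap.

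Of the 10 genes, 5 had a promoter entry in the RefSeq table (Cdk4, Cdk6, Ccne1, Ccnd3 and E2f1, with 6 windows in all, GRCm38.p6), each window running from 250 bases before to 50 bases after a transcription start. They were searched for the E-box CACGTG, the sequence read by MYC and MAX, which is its own reverse complement, and for the E2F words TTTCGCGC, TTTGGCGC, TTTCCCGC and TTTGCCGC on both strands. The kinase promoters are shown because they are the windows that hold an E-box, with the E-boxes in capitals (plus strand, upstream of the RefSeq start of the window and outside annotated exons). The stretch of Cdk6 lies upstream of that start but inside the longer span of the gene in GENCODE given above.
Cdk4 chr10:127063355-127063533: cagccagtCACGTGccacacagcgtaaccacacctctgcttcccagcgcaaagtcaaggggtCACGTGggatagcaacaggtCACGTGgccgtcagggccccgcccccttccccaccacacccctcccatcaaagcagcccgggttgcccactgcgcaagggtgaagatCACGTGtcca
Cdk6 chr5:3343653-3343702: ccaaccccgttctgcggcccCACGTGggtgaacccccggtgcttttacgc
The 4 E-boxes of Cdk4 start 172, 118, 98 and 11 bases before the transcription start, and that of Cdk6 starts 220 bases before it. At least 1 E-box was present in 7.15% of the 32851 promoter windows of the table, and 4 or more in 0.0244% of them (8 windows). None of the 6 windows held an E2F word, which 2.26% of all windows did. The E2f1 window (chr2:154569377-154569676, minus strand) lies wholly inside the GENCODE span of the gene, which starts at 154569892. The sequence before that start was thus not searched. A Ccnd3 window (chr17:47593217-47593516) also lies inside the GENCODE span of its gene. A match of letters describes these windows and does not show that a factor binds there.

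The E cyclins moved in opposite directions. Ccne1 (Entrez 12447, chr7:38097984-38107534, minus strand), which encodes cyclin E1, had an FPKM of 5.29, 5.59 and 6.02 in Control and 6.55, 8.51 and 7.33 in TgAPPsweOCN libraries. Every TgAPPsweOCN library lay above every Control library. It rose by a log2 fold change of 0.62 (SE 0.109, 95% confidence interval 0.37 to 0.87, adjusted p = 0.00111 from edgeR), and by 0.35 to 0.69 over the alternatives. Ccne2 (Entrez 12448, chr4:11191351-11204779, plus strand), which encodes cyclin E2, had an FPKM of 3.68, 3.98 and 4.0 in Control and 1.37, 2.56 and 1.84 in TgAPPsweOCN libraries, the lowest levels among the 10 genes. The TgAPPsweOCN values spread over a wider range than the Control values, yet the groups did not overlap. Its log2 fold change was -0.79 (SE 0.199, the largest of the 10, 95% confidence interval -1.25 to -0.33, adjusted p = 0.00771 from edgeR). Ccne2 rested on 197 to 228 estimated counts in Control and 85.7 to 161 in TgAPPsweOCN libraries, fractional in all 6. Its estimate ran from -1.04 to -0.60 over the alternatives, and without TgAPPsweOCN replicate 2 it passed a log2 fold change of -1 where Ccnd1 no longer did.

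The log2 ratio of the Ccne1 to the Ccne2 FPKM was 0.52, 0.49 and 0.59 across the Control libraries, against 2.26, 1.73 and 1.99 across the TgAPPsweOCN libraries, a difference of 1.46 with no overlap (exact permutation test, two-sided p = 0.1, adjusted 0.12). The summed level of both E cyclins hid this change. It was 9.52 ± 0.527 FPKM (n = 3) in Control and 9.39 ± 1.59 in TgAPPsweOCN libraries, with overlapping values (exact permutation test, two-sided p = 1).

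E2f1 (Entrez 13555, chr2:154559407-154569892, minus strand), an activating E2F factor and itself a known E2F target, had an FPKM of 22.57, 21.84 and 21.88 in Control and 13.69, 16.14 and 15.01 in TgAPPsweOCN libraries. The groups lay far apart in comparison with their spread. E2f1 changed by -0.35 on the log2 scale (SE 0.0641, 95% confidence interval -0.50 to -0.20, adjusted p = 0.00137 from edgeR). With library size only, the change was larger (-0.57, adjusted p = 0.00016 from edgeR). Rb1 (Entrez 19645, chr14:73183673-73325822, minus strand), which encodes RB, had an FPKM of 18.53, 19.04 and 21.72 in Control and 18.93, 23.07 and 21.88 in TgAPPsweOCN libraries, and these overlap. After TMM scaling its CPM was 77.3, 79.0 and 89.9 against 94.3, 108 and 104, which do not. The log2 fold change of Rb1 was 0.32 (95% confidence interval 0.14 to 0.50, adjusted p = 0.00734 from edgeR), but 0.10 with an adjusted p of 0.317 when scaled by library size only (0.000722 to 0.409 over all alternatives). The rise of Rb1 is thus relative to the bulk of genes. Free of scaling, the log2 ratio of E2f1 to Rb1 fell from 0.16 ± 0.140 (n = 3) to -0.51 ± 0.0385, without overlap (exact permutation test, two-sided p = 0.1, adjusted 0.12).

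Myc (Entrez 17869, chr15:61985391-61990374, plus strand) had an FPKM of 21.91, 26.48 and 23.75 in Control and 24.17, 20.63 and 22.11 in TgAPPsweOCN libraries. Control replicate 2 held the highest level and TgAPPsweOCN replicate 2 the lowest, and the groups overlapped under both scalings. Its estimate in edgeR was 0.11 on the log2 scale (SE 0.0930, adjusted p = 0.336), with a 95% confidence interval of -0.10 to 0.32. With library size only the estimate was -0.11 (adjusted p = 0.296, with 0.139 to 0.768 over all alternatives), and no direction can be given for Myc.

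**Figure D3:**
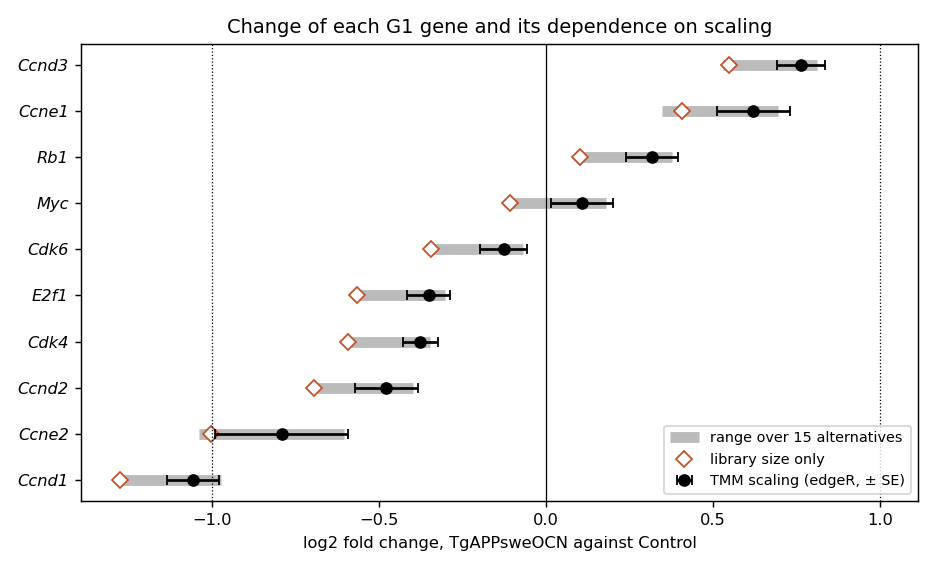
Log2 fold change (horizontal axis, TgAPPsweOCN against Control) of the 10 G1 genes: black points, edgeR with TMM scaling, with the standard error as whiskers; open diamonds, scaling by library size only; grey bars, range over the 15 alternatives; dotted lines, log2 fold changes of -1 and 1. Ccnd1 is lowest at -1.06 and Ccnd3 highest at 0.76, each diamond lies to the left of its point, and the grey bar of Myc crosses 0.

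Ranked by mean FPKM, which is scaled by gene length and so lets levels of different genes be set side by side, Ccnd1 (103) and Cdk4 (102) led in Control libraries with overlapping values. Ccnd3 (45.7) came next, then Myc (24.0) and E2f1 (22.1), which overlapped, and Rb1 (19.8), Ccnd2 (15.8), Cdk6 (9.46), Ccne1 (5.63) and Ccne2 (3.89), each clear of its upper neighbour. In TgAPPsweOCN libraries Cdk4 (67.8) and Ccnd3 (66.5) led with overlapping values, and Ccnd1 (42.7) came behind them. Myc (22.3) overlapped with Rb1 (21.3), and E2f1 (14.9), Ccnd2 (9.83), the overlapping Ccne1 and Cdk6 (both 7.46) and Ccne2 (1.92) followed.

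The other genes of the pathway were read as lists, and each count of calls is to be set beside the 32.5% of all tested genes called higher and the 31.5% called lower. Of the 9 other E2F and DP genes (DP proteins are the partners of most E2F factors), 3 were higher, a share near that of all tested genes, and 5 lower, with a median log2 fold change of -0.26 beside -0.02 for all tested genes. With library size only the counts were 2 and 6. The activator E2f2 had an FPKM of 3.63, 4.22 and 4.12 in Control and 1.07, 1.45 and 1.27 in TgAPPsweOCN libraries, a log2 fold change of -1.41 (SE 0.134, adjusted p = 2.85e-05 from edgeR). The repressor E2f7 (-1.39) and the DP gene Tfdp2 (-1.09) also fell by more than 1 on the log2 scale, and E2f8 (-0.76) and Tfdp1 (-0.26) fell by less. E2f3, another activator, had a mean FPKM of 5.99 ± 0.230 (n = 3) in Control against 8.30 ± 0.685, and its log2 fold change of 0.67 passed the test (adjusted p = 4.93e-05). The repressive E2f4 rose by 0.36, and by 0.14 to 0.39 over all alternatives (adjusted p of 1.35e-05 to 0.0479). E2f5, also repressive, rose by 0.28, but its call was lost with library size only (0.07, adjusted p = 0.431, with 0.00973 to 0.431 over all alternatives). E2f1 and E2f2 thus fell and E2f3 rose among the 3 activators.

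None of the 8 pocket protein, DREAM and MuvB genes, which encode the RB relatives p107 and p130, the subunits they form repressor complexes with, and B-MYB (Mybl2), which joins MuvB to activate late cell cycle genes, was higher and 4 were lower (median log2 fold change -0.34). Rbl1, which encodes the RB relative p107, went from 11.9 ± 0.406 FPKM (n = 3) down to 5.98 ± 0.617 FPKM, or -0.76 on the log2 scale (adjusted p = 9.68e-05 from edgeR). Rbl2, which encodes p130, fell by 0.42 on the log2 scale, Lin9 by 0.76 and Mybl2 by 0.87. Among 13 other regulators of the G1 kinases, 5 were higher and 4 lower with a median log2 fold change of 0.01, close to the shares (32.5% and 31.5%) and the median of all tested genes, and with library size only 1 was higher and 7 lower. These counts are not read as a result. Cdc37, the chaperone partner that loads kinases such as CDK4 onto HSP90, rose by 0.58 and remained past the threshold under every alternative. Mnat1 (0.46) and Gsk3b (0.35), the kinase that marks cyclin D1 for destruction, passed with TMM scaling but not with library size only. Wee1 (-0.87), Skp2 (-0.58), which targets p27 for degradation, and Cdk2 (-0.41), the kinase of the E cyclins, fell. Ambra1 (0.32) and Cdc25a (0.23) were the other genes called higher, both lost with library size only, and Fbxw7 (-0.29) was the other that fell. Of the 7 CDK inhibitors, Cdkn1a (log2 fold change 1.85) and Cdkn2b (1.30) rose and Cdkn1c (-1.70), Cdkn2c (-1.62), Cdkn1b (-0.77) and Cdkn2d (-0.45) fell, while Cdkn2a had a log2 fold change of 0.04 (adjusted p = 0.827 from edgeR). Cdkn2c, which encodes the INK4 inhibitor p18 that binds CDK4 and CDK6, had an FPKM of 26.12, 25.11 and 25.69 in Control and 7.65, 6.82 and 7.69 in TgAPPsweOCN libraries.

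**Figure D4:**
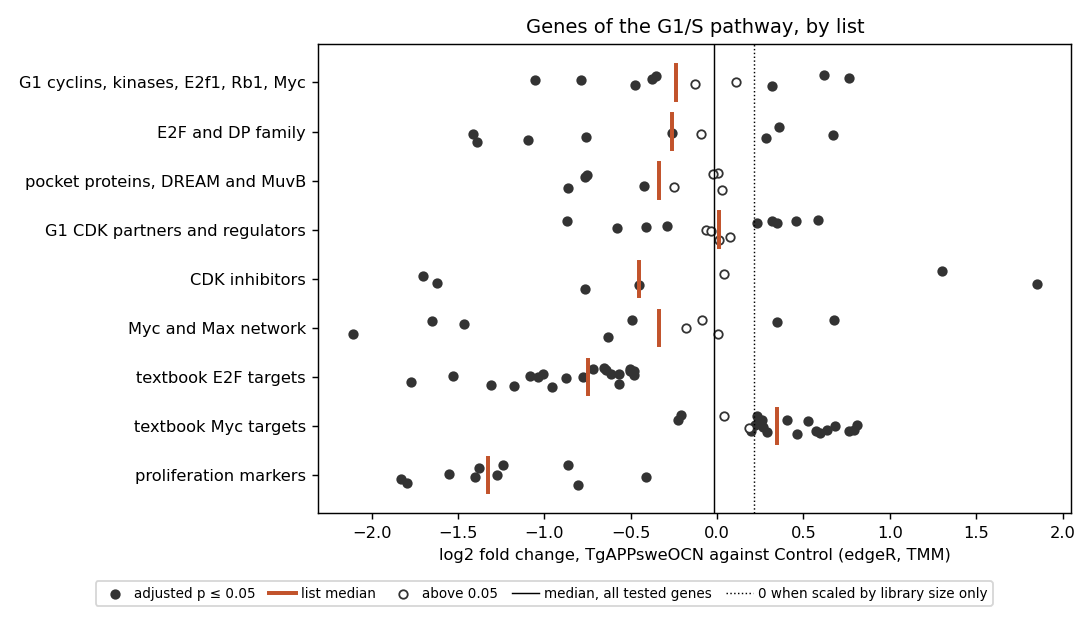
Log2 fold change (horizontal axis, edgeR with TMM scaling) of each tested gene in 9 lists; filled points have an adjusted p at or below 0.05, open points do not, vertical bars are list medians, the solid line is the median of all tested genes and the dotted line is where 0 lies when libraries are scaled by their totals only. All 20 E2F target genes and all 10 proliferation markers lie left of both lines, and 16 of the 20 Myc target genes are filled on the right of the solid line, several of them close to the dotted line.

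The textbook targets of E2F and of MYC moved in different directions. Of 20 E2F target genes, which serve DNA replication and S phase, 0 were higher and 20 were lower, with log2 fold changes from -1.77 to -0.48 and a median of -0.75. Over the alternatives 19 or 20 were lower, with 19 for instance under DESeq2 and in 4 of the 6 fits that left out 1 library. Thymidine kinase Tk1 went from 39.2 ± 1.37 FPKM (n = 3) down to 9.99 ± 1.14 FPKM, or -1.77 on the log2 scale (adjusted p = 4.96e-07 from edgeR), and Ccna2 (-1.53) and Cdk1 (-1.31) followed. Ccne1, which is also known as an E2F target, rose in the same libraries. Of 20 Myc target genes, mainly of ribosome production and metabolism, 16 were higher and 2 lower, with a median log2 fold change of 0.35, though none changed by 1 or more. Eif4e (0.81), Ldha (0.79) and Tfrc (0.76) rose most, and Cad (-0.22) and Polr1b (-0.21) were the 2 lower genes. Neither call was stable: with DESeq2 the adjusted p of Cad was 0.0635 and that of Polr1b 0.159 (0.000442 to 0.0897 and 0.000742 to 0.159 over all alternatives), and DESeq2 called 0 of these 20 genes lower. Scaled by library size only, 10 were higher and 3 lower with a median of 0.13, and limma on log2(FPKM + 1) gave 9 and 3, so the number of Myc targets called higher depends on the scaling. Of 10 proliferation markers, 0 were higher and 10 were lower, with a median log2 fold change of -1.33, led by Ccnb2 (-1.83), Plk1 (-1.80) and Foxm1 (-1.55), genes of the G2 and M phases. Mki67, which encodes the Ki-67 antigen, had an FPKM of 22.87, 21.64 and 25.23 in Control and 6.81, 9.63 and 8.3 in TgAPPsweOCN libraries (log2 fold change -1.27). The falls of Ccnd1, Ccnd2, Cdk4, Ccne2 and E2f1 stand beside this fall of proliferation markers, whose summed FPKM went from 152 to 157 in Control to 47.8 to 62.9 in TgAPPsweOCN libraries, and the part of the share of cycling cells in them was not tested.

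Within the network of MYC partners and rivals, 2 of 10 tested genes were higher and 5 lower (median log2 fold change -0.34), and with library size only 1 and 7. Mxd3, which competes with MYC for MAX, had an FPKM of 4.08, 4.79 and 4.34 in Control and 0.88, 1.0 and 0.73 in TgAPPsweOCN libraries, a log2 fold change of -2.11 (SE 0.185, adjusted p = 1.87e-05 from edgeR). Mxi1, another such antagonist, went from 18.1 ± 2.10 FPKM (n = 3) down to 4.90 ± 0.458 FPKM, or -1.65 on the log2 scale, and Mxd4 (-0.63) and Mnt (-0.49) fell by less. Mlx (0.68) rose under every alternative, and Max, the shared partner, rose by 0.34 with TMM scaling but by 0.13 without passing the threshold with library size only. Of the other MYC family genes, Mycn was too low to be tested (FPKM of at most 0.1). Mycl had an FPKM of at most 0.27, and its log2 fold change of -1.47 passed with edgeR (adjusted p = 0.0101) but not with DESeq2 (adjusted p = 0.0713, with 0.00456 to 0.0713 over the 14 alternatives that tested it).

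Markers of cell types were read beside these genes. Their counts of calls are to be set beside the 32.5% of all tested genes called higher and the 31.5% called lower. These counts are not read as a result. Of 12 myeloid marker genes, 5 were higher and 5 lower with edgeR, with log2 fold changes of 1.89 for Adgre1, 1.26 for Itgam, 1.11 for Fcer1g, 0.62 for Ptprc and 0.54 for Spi1 upward, and of -2.38 for Mrc1, -1.49 for Csf1r, -1.42 for Fcgr3, -1.26 for Cd68 and -0.46 for Tyrobp downward. Their summed FPKM ran from 17128 to 17916 in Control and from 14012 to 17898 in TgAPPsweOCN libraries. Csf1r encodes the receptor of the macrophage growth factor M-CSF. Of 11 tested stromal and osteoblast-lineage markers, 2 were higher (Col3a1, 0.74, and Alpl, 0.57) and 2 lower (Sp7, -0.78, and Pdgfrb, -0.55), while 4 were lower with library size only and 5 in limma on log2(FPKM + 1). The call of Col3a1 was lost when limma on that scale was run unfiltered (adjusted p = 0.0565, the highest over its alternatives, the lowest being 8.22e-07). The list's summed FPKM ran from 145 to 172 and from 112 to 189. The endothelial markers, of which Pecam1 (1.03) rose and Kdr (-0.97) fell, summed to 3.67 to 4.78 and 4.96 to 5.51. The part of cell composition in the changes of the G1 genes was not tested.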

How the data were processed

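RNA-seq of 3 Control and 3 TgAPPsweOCN libraries was used. The authors deposited estimated counts (fractional in 13.3% to 14.4% of genes per library) and FPKM for 17469 genes. The submitters' processing notes name HISAT2 2.0.4, Bowtie2 2.2.5, RSEM 1.2.12, DESeq2 1.4.5 and mm10. A second deposited table repeats the FPKM values beside the authors' log2 ratios and p-values, which were not used. The design had planned for counts. The estimated counts were rounded. Tests used the quasi-likelihood method of edgeR 4.0.16 under R 4.3.3, with genotype as the only term, TMM scaling, the filterByExpr filter and Benjamini-Hochberg adjustment, and were tested on simulated data. The biological coefficient of variation was 9.85%. Thresholds were an adjusted p of 0.05 and, where stated, a log2 fold change of 1. Intervals are 95%, and the floor of 3 counts covers counting error only. Sums, shares and ratios of FPKM were compared by exact permutation in scipy 1.17.1. Positions are from GENCODE vM21 (GRCm38) and promoters from RefSeq.

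Alternatives were DESeq2 1.42.0, RLE factors, library size only, 2 other count filters, a replicate block, limma 3.58.1 on log2(FPKM + 1), with and without a filter, or log2(FPKM + 0.1), leaving out each library, and TMM-scaled CPM for ratios. The genes and lists were chosen with earlier results of these data known. Named are the 10 genes, up to 3 highest and 3 lowest called genes of each pathway list, every CDK inhibitor, Mki67, Mycn, Mycl, App and defining markers. E2f8, Tfdp1, Rbl2, Ambra1, Cdc25a, Fbxw7, Mxd4, Mnt, Spi1, Cd68 and Tyrobp fall outside it and were chosen with their values in view, to complete counts. Skp1 and Cd3g were not matched by symbol, and 1 marker under the rule is not reported here.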

Additional observations from a re-analysis of the deposited data

How the results depend on the processing

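Of the 10 G1 genes, 7 kept their direction and their side of the adjusted p threshold under all 15 alternatives, the exceptions being Cdk6, Rb1 and Myc, as did 53 of the 64 other genes named with a log2 fold change. The numbers of G1 genes called, 3 higher and 5 lower, stayed within 1.5 times. Scaling by library size only and limma on log2(FPKM + 0.1) each called 2 of the G1 genes lower by a log2 fold change of 1, Ccnd1 and Ccne2, in place of 1. Over all tested genes, 1130 were higher and 1169 lower by at least 1 on the log2 scale. Library size only gave 846 and 1732. Limma on log2(FPKM + 1) gave 593 higher and 845 lower genes, or 589 and 846 without a filter. The log2 fold change of Myc reversed to -0.109 with library size only, -0.103 in limma on log2(FPKM + 1) with or without a filter and -0.107 in limma on log2(FPKM + 0.1). For Cdkn2a the same settings gave -0.179, -0.160 and -0.175, and leaving out 1 library gave -0.0687 to 0.158. With TMM-scaled CPM, which does not correct for length, the share of Ccnd2 among the D cyclins changed by 0.360 percentage points in place of -1.34, that of Ccnd1 by -21.7 in place of -26.8 and that of Ccnd3 by 21.3 in place of 28.1. The difference in summed E cyclin FPKM, -0.133, ran from -0.975 to 0.600 when 1 library was left out. Leaving out each library in turn gave 1103 to 1150 higher and 1125 to 1262 lower genes over all tested, and 3 higher and 5 lower G1 genes each time. The replicate numbers were not taken as pairs, since the deviations of same-numbered libraries correlated at 0.0242, -0.0183 and 0.167, and 3 of 6 libraries correlated best with their own number. With a replicate block, 1115 genes were higher and 1147 lower, 19 E2F targets were lower, the call of Polr1b was lost, and the G1 genes stayed at 3 higher, 5 lower and 1 lower by a log2 fold change of 1. The causes of these shifts were not tested. Counts limit Ccne2 and Ccne1 most among the G1 genes, with at most 352 in any library.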
